A study of Mus musculus with 4 samples.

Results

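The 86 cytosolic ribosomal protein genes of the mouse were followed in RNA-seq counts from the stromal vascular fraction (SVF) of inguinal white adipose tissue (iWAT). They were all listed symbols made of Rpl or Rps, a number and any a, x or l ending, together with Rplp0, Rplp1, Rplp2 and Rpsa, out of 26214 symbols, and rows marked as pseudogenes were left out. Of them, 77 were the usual members found in most ribosomes (46 of the large and 31 of the small subunit) and 9 were paralogues, recognised by an l after the number: Rpl3l, Rpl7l1, Rpl10l, Rpl22l1, Rpl32l, Rpl36al, Rpl39l, Rps4l and Rps27l. The study set mice treated with a medicinal herb extract (MHE) against mice given phosphate-buffered saline (PBS), with 2 libraries of each called biological replicates. The labels do not say what the extract contains, how much was given or for how long, nor the strain, sex, age or number of mice behind a library.

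A ribosome is made of ribosomal RNA and a fixed set of proteins, most of them normally present in a single copy. The small subunit reads the messenger RNA, and the large subunit joins the amino acids and lets the new chain out through its tunnel. The messages of these proteins are among the most abundant in most cells and usually begin with a run of pyrimidines, the terminal oligopyrimidine tract, through which mTOR and the RNA-binding protein Larp1 control their translation as a group. Some paralogues replace a usual protein in particular tissues, such as Rpl10l and Rpl39l in male germ cells and Rpl3l in skeletal muscle and heart.

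Counts per library came to 31052064 and 27161882 in MHE, against 27695144 and 33391075 in PBS. Levels are given in CPM, the usual counts-per-million unit relative to a library's total, here after scaling with TMM factors, and 16196 genes had enough counts to be tested. SVF is the pellet of a collagenase digest of fat, from which buoyant adipocytes are normally removed, yet the 16 adipocyte markers examined held 2.70% to 5.37% of each library's counts, so adipocyte RNA was present in all 4 libraries. Counts in whole tissue fractions cannot tell fewer cells of a type from less RNA per cell.

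The usual ribosomal protein genes were higher in the MHE libraries as a group, and the 4 libraries stood in nearly the same order for each gene. The median usual member had 829.7 and 548 CPM in MHE replicates 1 and 2, against 467 and 282 CPM in PBS replicates 1 and 2. All 77 were higher in MHE replicate 1 than in MHE replicate 2, and all 77 were higher in PBS replicate 1 than in PBS replicate 2. Both MHE libraries were above both PBS libraries in 67 of 77 members, where 33.1% of all genes tested had that order. In the other 10 (Rpl41, Rpl10, Rpl24, Rps2, Rpl29, Rps12, Rpl38, Rps26, Rps25 and Rpl39) PBS replicate 1 lay between the MHE libraries.

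Libraries of the same treatment differed by steps close in size to the difference between treatments. Over the usual members, the median log2 ratio of MHE replicate 1 to MHE replicate 2 was 0.62 and that of PBS replicate 1 to PBS replicate 2 was 0.71, while the same medians over all genes tested were -0.01 and 0.01. The closest libraries of different treatment, MHE replicate 2 and PBS replicate 1, differed by a median of 0.25, and the furthest, MHE replicate 1 and PBS replicate 2, by 1.53. The usual members thus differed together within each treatment as well as between treatments.

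**Figure D1:**
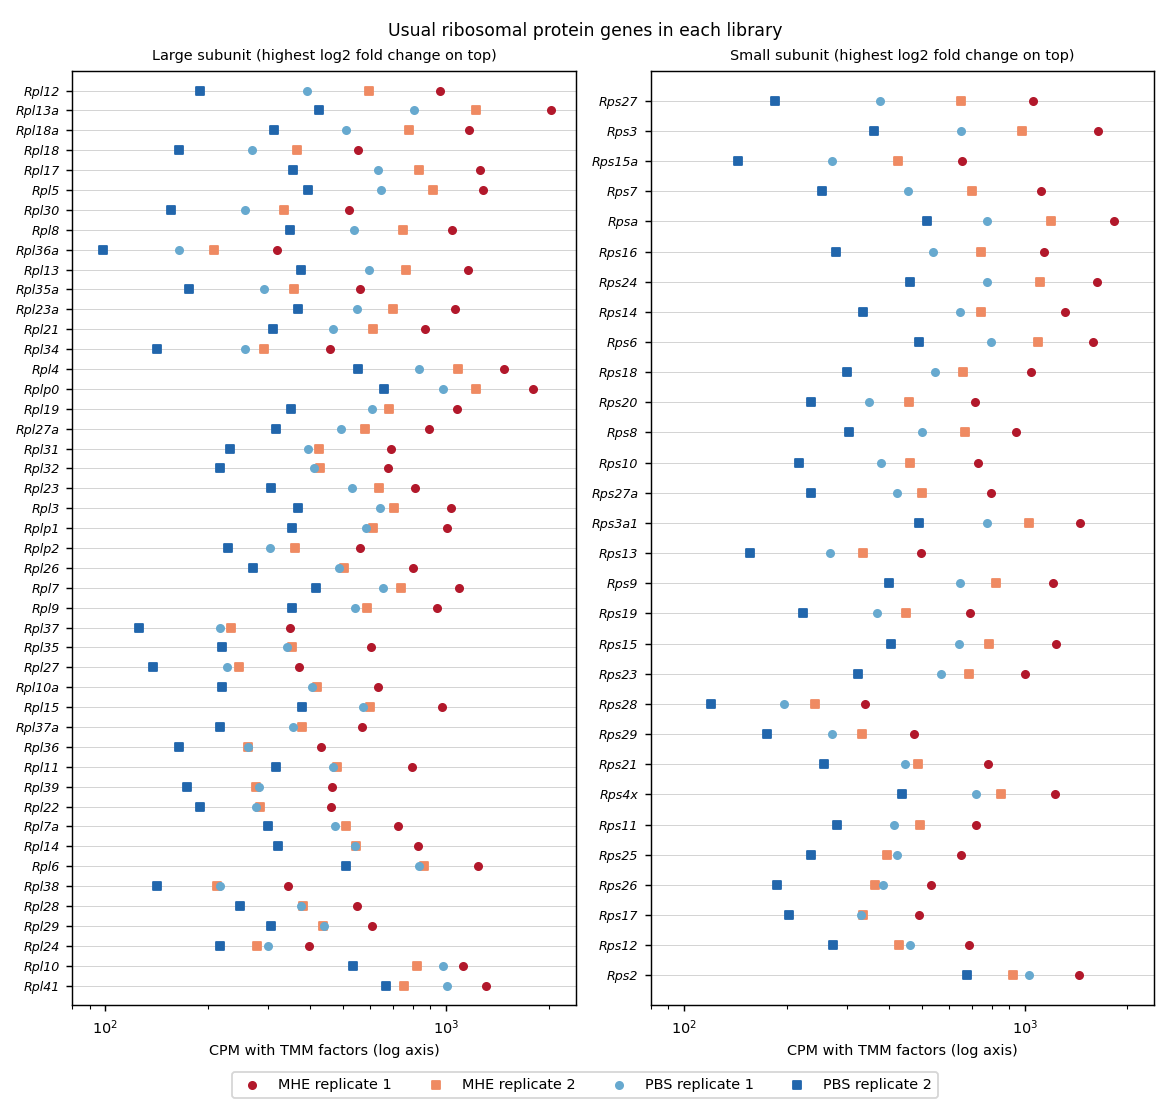
Level of usual ribosomal protein genes in each library, in CPM with TMM factors on a log axis. Each row is a gene and each point a library, with red circles and orange squares for MHE replicates 1 and 2 and light blue circles and dark blue squares for PBS replicates 1 and 2. MHE replicate 1 was highest and PBS replicate 2 lowest in every gene drawn. The log2 ratio of MHE replicate 2 to PBS replicate 1 ranged over the usual members from -0.42 to 0.79.

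The share of a library's counts that fell on the 77 usual members needs no scaling between libraries. It was 7.41% (exact Clopper-Pearson 95% interval 7.41 to 7.42) and 4.77% (4.76 to 4.78) in MHE replicates 1 and 2, against 3.83% (3.82 to 3.83) and 2.06% (2.05 to 2.06) in PBS replicates 1 and 2. These exact intervals cover counting error only, not the spread between libraries. The share averaged 6.09 ± 1.87% in MHE and 2.94 ± 1.25% in PBS libraries (SD, n = 2 each), a difference of 3.15 percentage points and a ratio of 2.07. An exact two-sided permutation test gave p = 0.33, the smallest p that 2 against 2 libraries allow. Without MHE replicate 1 the difference was 1.83 points, and without PBS replicate 2 it was 2.26 points.

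In the edgeR quasi-likelihood fit over all 16196 genes, none of the 84 members tested passed an adjusted p of 0.05, where 4.93% of all genes did so and 3.97% did so in the direction of higher in MHE. At an unadjusted p under 0.05 there were 19 members, 18 of them usual (23.4% of the usual members). The 18 usual ones were all higher in MHE. Of all genes tested, 28.6% were under that p in either direction and 16.7% were so as higher in MHE. All 77 usual members were tested and all had positive log2 fold changes (MHE over PBS), with a median of 0.88, a 1.84-fold difference, quartiles of 0.73 and 1.01 and a range of 0.30 to 1.60. Over all genes the median was -0.02, the quartiles -0.53 and 0.53, and 48.8% were positive. Standard errors of the usual members lay between 0.33 and 0.49 and their adjusted p between 0.118 and 0.67.

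The count of calls depended on single libraries and on the tool, as it did over all genes. Without PBS replicate 1, 10 members passed (16.5% of all genes, 10.5% higher in MHE): Rpl12, Rpl13a, Rpl36a, Rps3, Rps7, Rps15a, Rps16 and Rps27 were higher in MHE and Rpl39l and Rps4l lower. Without PBS replicate 2, the paralogues Rpl39l (higher in MHE) and Rpl3l (lower) passed and no usual member did (14.6% of all genes, 7.45% higher in MHE), and without MHE replicate 1 or 2 no member and no gene at all passed. DESeq2 called 19 usual members, all higher in MHE, where it called 19.3% of all genes and 11.2% as higher in MHE. Limma-voom called none, where it called 7.0% of all genes and 5.5% as higher. At an unadjusted p under 0.05 it had 26 of 84 members, beside 4733 of 16196 genes in either direction. The median log2 fold change of the usual members was 0.59, 1.15, 1.25 and 0.58 without MHE replicate 1, MHE replicate 2, PBS replicate 1 and PBS replicate 2.

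**Figure D2:**
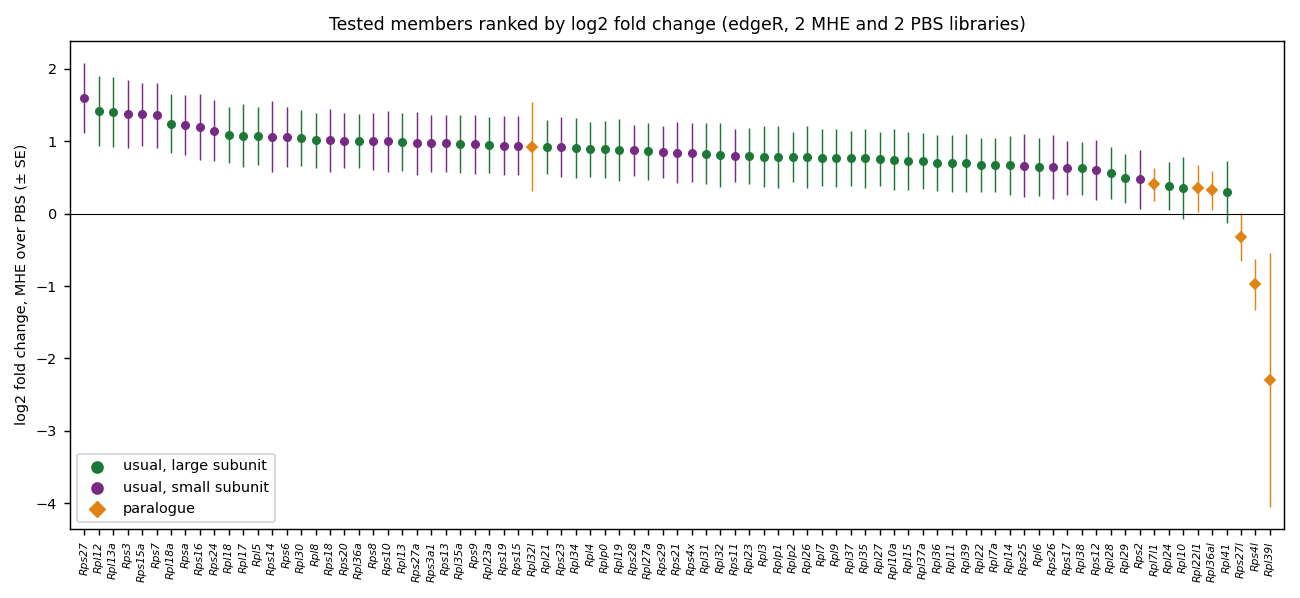
Log2 fold change (MHE over PBS) of members tested, in rank order, with the standard error of the edgeR fit on 2 libraries of each treatment as bars. Green and purple circles are usual members of the large and small subunit and orange diamonds are paralogues. All circles lay above 0, between 0.30 and 1.60, and 3 of the 7 paralogues lay below 0.

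Members of the small subunit had a median log2 fold change of 0.97 (31 genes) and members of the large subunit 0.79 (46 genes). Rps27, a zinc-binding protein of the small subunit, had the highest value. Its level was 1054 CPM in MHE replicate 1 and 649 CPM in MHE replicate 2, against 377 CPM in PBS replicate 1 and 185 CPM in PBS replicate 2. Its log2 fold change was 1.60 ± 0.48 (SE; edgeR adjusted p = 0.118), and the groups did not overlap. Rps3, which lines the entry of the messenger RNA channel, had 1638 and 980.1 CPM in MHE, against 649 and 361 CPM in PBS libraries (log2 fold change 1.37 ± 0.47, adjusted p = 0.141). Rps15a and Rps7, of which the second can bind the p53 regulator Mdm2, had log2 fold changes of 1.37 ± 0.44 and 1.36 ± 0.44, again with both MHE libraries above both PBS libraries.

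Rps6, the substrate of the S6 kinases and a common readout of mTOR activity, had 1581 and 1094 CPM in MHE, against 797 and 488 CPM in PBS libraries. Its log2 fold change was 1.06 ± 0.41 (adjusted p = 0.174), near the median of its subunit. Rpsa, also known as a laminin receptor, and Rps24, mutated in some cases of Diamond-Blackfan anaemia in humans, were among the 5 most abundant members. Rpsa had 1831 and 1192 CPM in MHE, against 776 and 515 CPM in PBS libraries, and Rps24 had 1631 and 1109 CPM in MHE, against 776 and 461 CPM in PBS libraries. Neither gene's groups overlapped. Rps2, also at the messenger RNA entry, had the lowest log2 fold change of its subunit, 0.48 ± 0.41. Its level in PBS replicate 1 (1026 CPM) exceeded that in MHE replicate 2 (924 CPM) and lay below that in MHE replicate 1 (1444 CPM), with 677 CPM in PBS replicate 2.

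The stalk of the large subunit recruits the elongation factors. Its base protein Rplp0 was the most abundant usual member by CPM, with 1805 and 1225 CPM in MHE and 977 and 659 CPM in PBS libraries. The log2 fold changes of Rplp0, Rplp1 and Rplp2 were 0.89, 0.79 and 0.79. Rpl12, which sits beside Rplp0 at that base, had the highest value of the large subunit. It had 958 and 596 CPM in MHE, against 391 and 189 CPM in PBS libraries, a log2 fold change of 1.42 ± 0.48 (adjusted p = 0.141). In each of these 4 genes the MHE libraries were above the PBS libraries.

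Rpl13a, which in human monocytes can leave the ribosome to silence inflammatory messages, had 2027 and 1222 CPM in MHE, against 805 and 424 CPM in PBS libraries (log2 fold change 1.40 ± 0.49, adjusted p = 0.145). Rpl5 and Rpl11 form a particle with the smallest ribosomal RNA that can inhibit Mdm2 and so raise p53. Rpl5 had 1279 and 912 CPM in MHE, against 646 and 395 CPM in PBS libraries. Rpl11 had 795 and 477 CPM in MHE, against 467 and 318 CPM in PBS libraries. Their log2 fold changes were 1.07 ± 0.40 and 0.70 ± 0.40, and for Rpl11 the closest libraries, MHE replicate 2 and PBS replicate 1, nearly met.

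The 3 lowest log2 fold changes of all usual members, those of Rpl41, Rpl10 and Rpl24, were in the large subunit. Rpl41, the shortest ribosomal protein, had 1310.4 and 751 CPM in MHE, against 1003 and 667 CPM in PBS libraries, so that PBS replicate 1 was above MHE replicate 2. Its log2 fold change was 0.30 ± 0.43, and -0.14 without MHE replicate 1. Rpl10, needed for the final steps of large subunit assembly, had 1120.4 and 819 CPM in MHE, against 981 and 534 CPM in PBS libraries. Its log2 fold change was 0.36 ± 0.42, and -0.0062 without PBS replicate 2. Rpl24, a protein of the bridge between the subunits, had 0.38 ± 0.33. Rpl29 and Rpl28, which ranked just above Rps2, had 0.49 ± 0.34 and 0.57 ± 0.36, and the adjusted p of these 3 lay between 0.348 and 0.474.

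Rpl10, Rpl36a, Rpl39 and Rps4x lie on the X chromosome. Their median log2 fold change was 0.77, against 0.88 for the 73 autosomal usual members. Rpl36a had 1.00 ± 0.38 and Rps4x 0.84 ± 0.40, with both MHE libraries above both PBS libraries, while Rpl10 and Rpl39 overlapped. Levels of different genes were compared per kb of the shortest principal transcript in GENCODE M21. On that scale Rpl41 (2134 CPM per kb), Rps27 (1642) and Rps15 (1532) were highest and Rpl37 (277) and Rps20 (119) lowest, the last with a 3706-base transcript as its shortest principal one. By CPM, 12 usual members were among the 100 most abundant genes.

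Fau and Rack1 encode proteins of the ribosome but do not carry Rpl or Rps symbols. Fau, whose product is a ubiquitin-like protein joined to a small subunit protein, had 103 and 62.9 CPM in MHE, against 43.8 and 28.0 CPM in PBS libraries, with a log2 fold change of 1.21. Rack1, the signalling scaffold on the small subunit, had 897 and 579 CPM in MHE, against 455 and 264 CPM in PBS libraries, with a log2 fold change of 1.04. Neither passed the edgeR test (adjusted p = 0.112 for Fau and 0.185 for Rack1), and in both genes the MHE libraries were above the PBS libraries. Without PBS replicate 1, Fau passed, at 1.55.

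The starts of these genes were examined because a pyrimidine run at the first bases of the message is the feature by which they are translated together. RefSeq promoter windows of GRCm38.p6, the assembly behind mm10, were at hand for 57 usual genes (67 windows) and 8 paralogues (10 windows). Below are the 30 bases centred on annotated starts, on the coding strand, with runs of at least 8 C or T in capitals, for the 6 usual members with the highest log2 fold changes, for Rpl41 with the lowest, and for 3 paralogues and their usual partners. These pairs are the ones with windows for both genes among the 5 pairs whose ratio, given further on, did not overlap between treatments.
Rps27, chr3:90213634-90213663, minus strand: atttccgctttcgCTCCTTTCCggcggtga
Rpl12, chr2:32961697-32961726, plus strand: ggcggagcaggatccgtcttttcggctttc
Rpl13a, chr7:45128731-45128760, minus strand: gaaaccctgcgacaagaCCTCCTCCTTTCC
Rps3, chr7:99483695-99483724, minus strand: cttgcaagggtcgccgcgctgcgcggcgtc
Rps15a, chr7:118116133-118116162, minus strand: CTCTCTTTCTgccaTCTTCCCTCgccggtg
Rps7, chr12:28635939-28635968, minus strand: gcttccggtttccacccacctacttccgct
Rpl41, chr10:128549154-128549183, minus strand: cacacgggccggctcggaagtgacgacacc
Rps27l, chr9:66946071-66946100, plus strand: ccaCTCCTCCCCgccgcctctatcccggaa
Rps27l, chr9:66946398-66946427, plus strand: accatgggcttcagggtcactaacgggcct
Rpl36a, chrX:134585639-134585668, plus strand: gtgcacccaggcaccgcctataaacttccg
Rpl36al, chr12:69184053-69184082, minus strand: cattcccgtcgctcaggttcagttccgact
Rpl22, chr4:152324421-152324450, plus strand: cgctgcttctggaatgttccagctcccact
Rpl22, chr4:152325711-152325740, plus strand: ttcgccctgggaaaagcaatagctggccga
Rpl22l1, chr3:28805493-28805522, plus strand: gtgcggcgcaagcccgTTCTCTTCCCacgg
Of the 6 highest members, Rps27, Rpl13a and Rps15a had a run and Rpl12, Rps3 and Rps7 had none, nor had Rpl41. Of the paralogues, Rpl22l1 had a run while both windows of Rpl22 had none, Rps27l had one in the first of its windows and none in the other, and Rpl36al had none, like Rpl36a. No match says only that the letters are not in this window of the annotated start.

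Of the windows of usual members, 38.8% held such a run, against 3 of 10 windows of paralogues and 12.5% of the windows of all genes tested. The motif CCGGAAG, the core of sites that ETS factors such as Gabpa bind, was searched on both strands of the 300 bases from 250 before to 50 after the start. It stood in 37.3% of the usual members' windows, 2 of 10 windows of paralogues and 15.2% of the windows of all genes tested. TATAAA, on either strand of the same 300 bases, stood in 8.96% of the usual members' windows, 2 of 10 windows of paralogues and 7.91% of the windows of all genes tested. CCGGAAG and TATAAA cannot overlap each other, while the CTTCC of the reversed CCGGAAG can lie within a pyrimidine run. The median log2 fold change was 0.89 in the 25 usual members with a pyrimidine run and 0.82 in the 32 without, and 0.78 in the 24 with CCGGAAG and 0.92 in the 33 without. All of these groups were positive throughout, so the difference between treatments was seen in members with and without either motif.

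Ribosomal protein messages are short and have many near-copies in the genome, so length and shared sequence were compared with the log2 fold changes. Genes other than the members with transcripts under 1000 bases had a median of -0.08 (1729 genes), and those with 1000 to 2000 bases -0.08 (3688 genes). In the same length classes the usual members had medians of 0.84 (60 genes) and 0.89 (15 genes). Other abundant genes, whose log2 CPM averaged 7.6 or more, had medians of -0.27 and -0.45 in those classes. Outside the ribosomal protein genes, neither the short classes nor their abundant genes had a positive median. The part of length or abundance in the values of the members was not tested.

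Of the 86 members, 79 shared over 10% of the 50-base windows of their transcript with another annotated gene, and 49 shared over 50%. The 26 usual members between 10% and 50% had a median log2 fold change of 0.88, and the 47 above 50% a median of 0.83. Some rows may hold the same reads. The row Rps27rt, a gene copied from Rps27 with an identical coding sequence, had 99.3% to 99.7% as many counts as Rps27 in each library, and Rpl34-ps1 had 98.9% to 99.4% as many as Rpl34. Rps6-ps4 had 35.6% to 38.2% as many as Rps6, and Rpl37rt 3.90% to 5.71% as many as Rpl37. The counts of Rps27 and Rpl34 can thus not be separated from those of their copies.

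The paralogues had a wider range of log2 fold changes than the usual members. Of 9, 7 had enough counts to be tested, and their log2 fold changes had a median of 0.32 and a range of -2.30 to 0.93, with 4 positive. None passed the edgeR test. Rpl7l1 and Rpl32l were higher and Rps4l was lower in both MHE libraries than in both PBS libraries, where 33.1% and 28.9% of all genes tested had these orders, 62.0% in all. Because a paralogue and its usual partner sit in the same library, their ratio is free of the scaling between libraries, and 8 such ratios were compared between treatments. In 5 of the 8 the ratio was lower in both MHE libraries than in both PBS libraries, and in the other 3 the groups overlapped. That order is common: of 16112 tested genes outside the members, each set over the same usual partner, 44.0% (over Rpl39) to 79.3% (over Rps27) had a lower ratio in both MHE libraries, so 5 of 8 lies within the range of other genes and is no result about the paralogues. An exact two-sided permutation test gave p = 0.33 for each of the 5, the smallest possible here, and 0.533 after Benjamini-Hochberg adjustment over the 8 pairs.

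Rps27l, a p53 target whose protein closely resembles Rps27, showed the widest difference among these 5. It had 62.1 and 38.3 CPM in MHE, against 74.9 and 50.7 CPM in PBS libraries, and its groups overlapped. Set against Rps27, it had 5.89% and 5.90% as many counts in MHE, against 19.9% and 27.3% in PBS libraries. The log2 ratio differed by -1.98 (range -2.21 to -1.75 with each library left out), and the MHE libraries were nearly equal in it. The coding sequences of the 2 genes are 77.3% identical in GENCODE M21, and the first 60 coding bases show how reads of Rps27l can be told from those of Rps27 while Rps27rt cannot. Capitals in Rps27l mark the 18 bases that differ from Rps27.
Rps27, chromosome 3: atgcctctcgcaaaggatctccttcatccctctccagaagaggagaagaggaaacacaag
Rps27rt, chromosome 9: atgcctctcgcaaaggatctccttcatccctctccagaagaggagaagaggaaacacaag
Rps27l, chromosome 9: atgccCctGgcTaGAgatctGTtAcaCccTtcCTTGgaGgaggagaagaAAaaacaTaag
The difference in the ratio came with Rps27 at its highest log2 fold change of the group (1.60) and Rps27l at -0.32 ± 0.33.

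Rps4l, a relative of the X-linked Rps4x, was the paralogue with the lowest p. The GENCODE M21 transcript used for Rps4l has no annotated coding sequence, nor has that of Rpl32l. Rps4l had the following levels. It had 32.1 and 19.2 CPM in MHE, against 39.99 and 61.0 CPM in PBS libraries, with no overlap. Its log2 fold change was -0.98 ± 0.35 (edgeR unadjusted p = 0.0376, adjusted p = 0.154), and it passed without PBS replicate 1 (-1.26, adjusted p = 0.036). As a percentage of Rps4x counts it stood at 2.62% and 2.25% in MHE, against 5.55% and 14.0% in PBS libraries, a log2 difference of -1.86, and -1.19 without PBS replicate 2. Rps4l overlaps Tmtc1 on the opposite strand, and without strand information their reads cannot be told apart.

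Rpl36al, an autosomal copy of the X-linked Rpl36a with 87.7% identity of the coding sequence, had 152 and 119 CPM in MHE, against 125 and 91.0 CPM in PBS libraries. Its groups overlapped and its log2 fold change was 0.32 ± 0.27. Its counts were 47.5% and 56.8% of those of Rpl36a in MHE, against 75.8% and 92.6% in PBS libraries (log2 difference -0.69, range -0.83 to -0.54 with each library left out). Rpl22l1 is a relative of Rpl22, which T cells need for their development in mice. It had 134 and 87.7 CPM in MHE, against 104 and 70.5 CPM in PBS libraries, and 29.2% and 30.7% of the counts of Rpl22 in MHE, against 37.4% and 37.1% in PBS libraries. That log2 difference was -0.31, with a range of -0.35 to -0.28, and the log2 fold change of Rpl22l1 itself was 0.35 ± 0.32.

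Rpl7l1, with 57.1% identity to Rpl7 the lowest of the pairs with coding sequences in the annotation, was higher in both MHE libraries, at 92.5 and 78.8 CPM, than in PBS libraries, at 72.6 and 56.5 CPM (log2 fold change 0.41 ± 0.23, adjusted p = 0.3). Against Rpl7 it had 8.47% and 10.7% of the counts in MHE and 11.1% and 13.6% in PBS libraries, a log2 difference of -0.37 with a range of -0.54 to -0.20. For these pairs the lower ratio stood beside a usual partner with a larger log2 fold change, 1.00 for Rpl36a, 0.67 for Rpl22 and 0.77 for Rpl7. Of genes outside the members, 62.6% had a lower ratio to Rpl36a in both MHE libraries, 46.9% to Rpl22, 54.0% to Rpl7 and 57.7% to Rps4x.

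**Figure D3:**
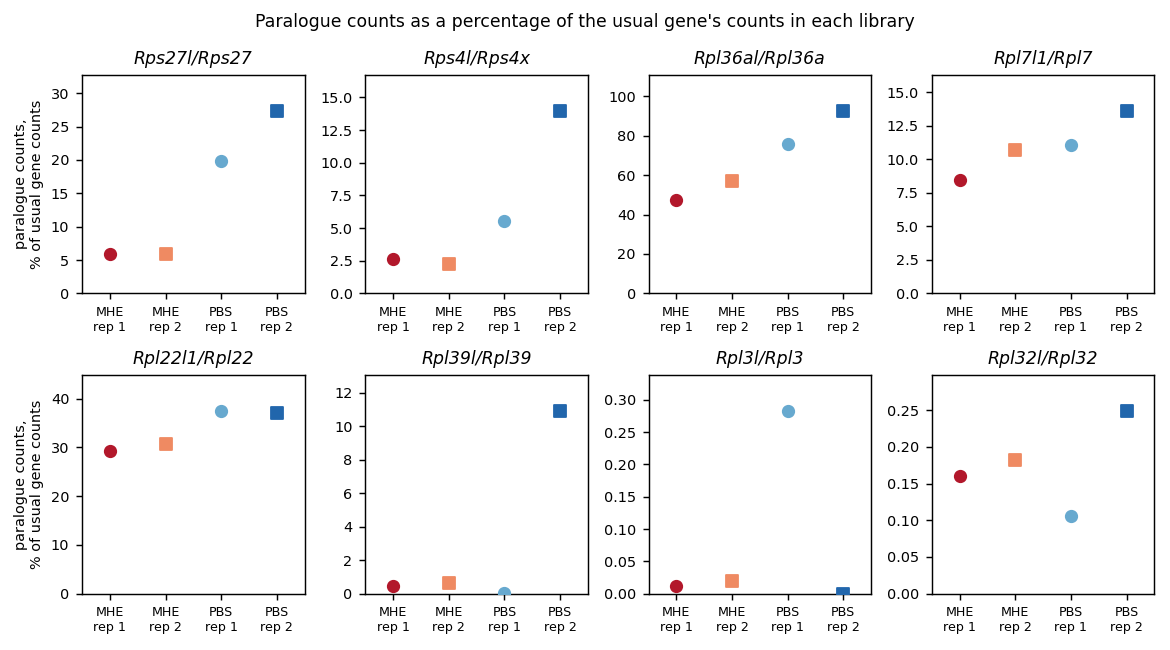
Counts of each paralogue as a percentage of the counts of its usual partner, in each library (rep, replicate). Each panel is a pair with its own linear axis from 0. In the upper row and in Rpl22l1/Rpl22 both MHE points lay below both PBS points, and in Rpl39l/Rpl39, Rpl3l/Rpl3 and Rpl32l/Rpl32 they overlapped.

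The 4 remaining paralogues had few counts or uneven ones. Rpl39l, which takes the place of Rpl39 in the ribosome tunnel of male germ cells, had 71 and 49 counts in MHE, against 3 and 559 counts in PBS libraries, so PBS replicate 2 alone was high. Its log2 fold change was -2.30 ± 1.75 (adjusted p = 0.429), and it was 4.11 without PBS replicate 2. Of 10 male germ cell markers, 6 and 5 were at 0 counts in MHE libraries and 1 and 7 in PBS libraries, and their summed level was 55.1 and 33.9 CPM in MHE and 126 and 118 CPM in PBS libraries. The part of germ cell transcripts in the Rpl39l counts was not tested.

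Rpl3l, the striated muscle form of Rpl3, had 4 and 4 counts in MHE, against 50 and 0 counts in PBS libraries, and was not tested in the fit of all 4 libraries. The 15 skeletal muscle markers summed to 91.3 and 184 CPM in MHE, against 331 and 1214 CPM in PBS libraries, so the library with most muscle RNA, PBS replicate 2, was the one with Rpl3l at 0, a count that allows up to 3 (one-sided limit). Rpl32l had 36 and 22 counts in MHE, against 12 and 16 counts in PBS libraries, with a log2 fold change of 0.93 ± 0.61, and it overlaps Map7 on the same strand. Rpl10l, which replaces Rpl10 in meiotic male germ cells, had 0 counts in all 4 libraries. The log2 ratios to the usual partner differed by -0.37 (Rpl39l), -1.08 (Rpl3l) and 0.05 (Rpl32l), each with p = 1 by the exact permutation test. Without PBS replicate 2 the Rpl39l value was 3.60, and without PBS replicate 1 those of Rpl3l and Rpl32l were 1.90 and -0.56.

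In a scaling chosen after seeing the data, each library was scaled to its summed counts of the 77 usual members, so that the members were read against the group itself. On this scale Rps4l fell, with a log2 fold change of -2.05 (edgeR adjusted p = 0.0247), and it was the only member to pass, where 13.4% of all genes did and 3.16% did as higher in MHE. Rps27l stood at -1.25 (adjusted p = 0.175), and Rpl36al, Rpl22l1 and Rpl7l1 at -0.58, -0.57 and -0.50 with adjusted p between 0.54 and 0.59. The 3 last-named values were positive with TMM factors and so change sign with the scaling. Among usual members, Rps27 remained highest (0.73) and Rpl41 lowest (-0.63).

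Other genes of protein synthesis were examined beside the ribosomal proteins. None of 19 translation factors and companions whose messages share the pyrimidine tract passed the edgeR test, 17 were positive, and the median log2 fold change was 0.46. Among them Eef1b2, an exchange factor of elongation, had 0.91 ± 0.38, and Hnrnpa1, a splicing regulator, 0.73 ± 0.29. Of 33 genes that build ribosomes in the nucleolus, 3 rose, where 3.97% of all genes tested did, and 31 were positive, where 48.8% of all genes were, with a median of 0.54. Tcof1, the treacle protein of ribosomal RNA transcription, had 70.2 and 68.6 CPM in MHE, against 25.3 and 24.4 CPM in PBS libraries, and rose by 1.48 ± 0.18 (adjusted p = 0.0255).

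Heatr1, of the complex that processes small subunit RNA, had 41.2 and 41.5 CPM in MHE, against 15.6 and 15.3 CPM in PBS libraries, and rose by 1.42 ± 0.19 (adjusted p = 0.0299). Nop56, of the RNA methylation particles, had 54.5 and 49.2 CPM in MHE, against 22.2 and 18.6 CPM in PBS libraries, and rose by 1.35 ± 0.20 (adjusted p = 0.0384). In these 3 genes the libraries of each treatment lay close together. They were named because they passed, and a call from 2 libraries of each treatment favours genes with close libraries. Their closeness is therefore no contrast between ribosome assembly genes and ribosomal proteins. All 3 lost their call without MHE replicate 1 or 2, as every gene did, with log2 fold changes of 1.28 to 1.51. Dkc1, the pseudouridine synthase, stood at 1.27 ± 0.23 with an adjusted p of 0.0502.

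None of 23 tested regulators of ribosome synthesis passed (13 positive, median 0.14). Myc, a transcription factor that drives many of these genes, had 43.4 and 42.9 CPM in MHE, against 20.03 and 14.0 CPM in PBS libraries, a log2 fold change of 1.34 ± 0.25 at an adjusted p of 0.0502. Myc passed with DESeq2, which called 19.3% of all genes, and with limma-voom, which called 7.0%. With each library left out, its log2 fold change ranged from 1.12 to 1.61. Of the mTOR pathway, Eif4ebp1 and Eif4ebp2, which restrain translation until mTOR phosphorylates them, had -0.73 ± 0.27 and 0.61 ± 0.23, and Rheb, the activator of mTOR, -0.53 ± 0.20. None of 78 mitochondrial ribosomal protein genes passed, 31 were positive, and their median was -0.10, on the other side of 0 from the cytosolic set.

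Of 18 p53 targets, 5 were positive, with a median of -0.16. Pmaip1, which encodes the cell death protein Noxa, rose, at 22.9 and 27.4 CPM in MHE, against 6.53 and 4.39 CPM in PBS libraries (2.20 ± 0.30, adjusted p = 0.0315). It lost its call without either MHE library (2.34 and 2.08). The cell cycle inhibitor gene Cdkn1a stood at -1.31 ± 0.32, Plk2 at -1.31 ± 0.28 and Trp53inp1 at 1.05 ± 0.24, with adjusted p between 0.0652 and 0.0814. Rps27l, itself a p53 target, had a negative value as well, at -0.32.

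**Figure D4:**
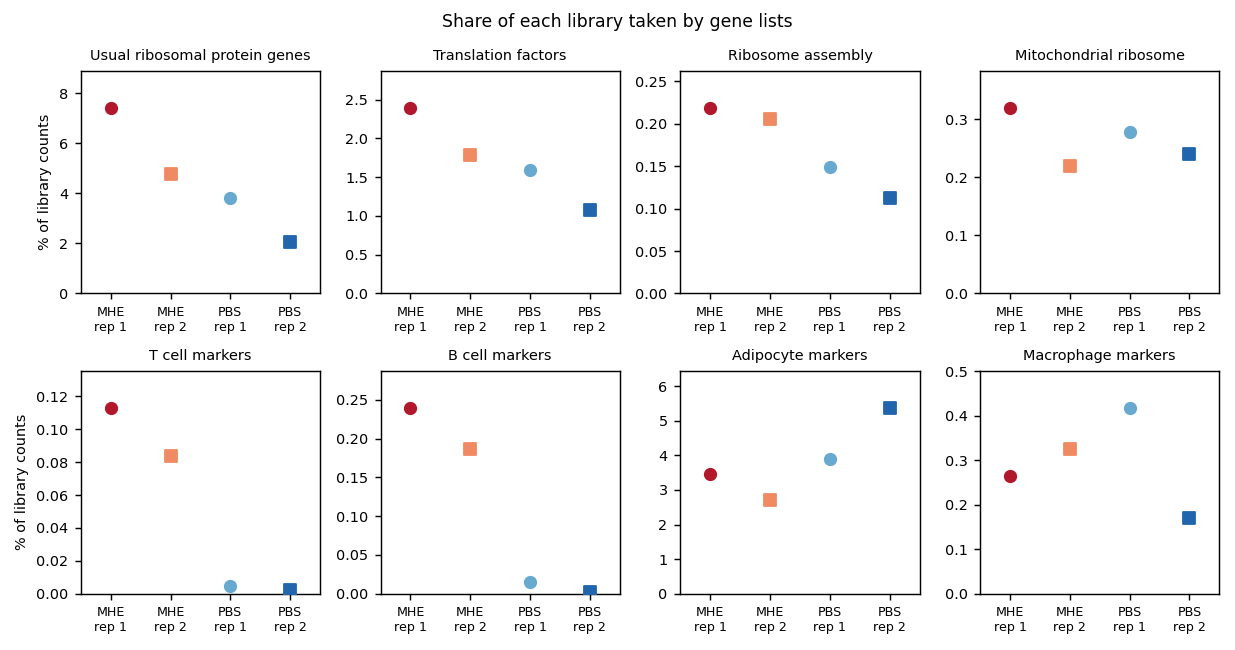
Percentage of each library's counts (rep, replicate) in the usual ribosomal protein genes, in other protein synthesis lists and in marker lists of 4 cell types, each on a linear axis from 0. Usual ribosomal protein genes, translation factors, ribosome assembly genes, T cell markers and B cell markers ranked, from high to low, MHE replicate 1, MHE replicate 2, PBS replicate 1, PBS replicate 2, and the other lists did not.

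Markers of several cell types moved with the libraries. The 12 T cell markers summed to 1056 and 798 CPM in MHE, against 49.1 and 28.3 CPM in PBS libraries. All 12 rose, where 3.97% of all genes tested did. The 12 B cell markers summed to 2237 and 1778 CPM in MHE, against 153 and 20.4 CPM in PBS libraries, and 4 of them rose, against the same share of all genes. No T or B cell marker was at 0 in any library. Both sums were in the library order of the ribosomal protein genes, but MHE replicate 2 and PBS replicate 1, which had median levels of usual members of 548 and 467 CPM, were far apart in both. How many of these markers passed changed with the library left out, as it did over all genes.

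The 16 adipocyte markers summed to 32358 and 25767 CPM in MHE, against 39026 and 60601 CPM in PBS libraries, and the library with most, PBS replicate 2, had the lowest levels of ribosomal proteins. The 12 macrophage markers summed to 2470.1 and 3094 CPM in MHE, against 4173 and 1911 CPM in PBS libraries, and the 14 progenitor markers to 1482.5 and 2608 CPM in MHE, against 2872 and 2676 CPM in PBS libraries. Smooth muscle markers (10 genes) summed to 659.9 and 1017 CPM in MHE, against 3790.1 and 3954 CPM in PBS libraries, and endothelial markers (12 genes) to 1269 and 1347 CPM in MHE, against 1466 and 2698 CPM in PBS libraries. Of the adipocyte markers Lep fell and Adrb3 rose, of the progenitor markers Icam1 rose, of the smooth muscle markers Lmod1 fell and of the skeletal muscle markers Myh4 rose, while no macrophage or endothelial marker passed. The part of these cell types in the levels of the ribosomal protein genes was not tested.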

How the data were processed

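RNA was measured by sequencing in 2 MHE and 2 PBS libraries of mouse iWAT SVF. The labels' protocols give Trizol extraction and speak of triplicate libraries, and 2 per treatment were analysed here. The submitters' processing notes name TopHat2, edgeR, limma and mm10, while for the counter, annotation and strand setting the sources used here give nothing. The authors deposited raw read counts per symbol. Genes were tested with edgeR 4.0.16 in R 4.3.3 (filterByExpr with minimum count 10 and total 15, TMM, robust quasi-likelihood fit), with Benjamini-Hochberg adjustment over 16196 genes. TMM factors were 1.07 and 1.05 (MHE), and 1.00 and 0.886 (PBS), and the biological coefficient of variation was 33.6%. Standard errors were derived from the fit's F statistic (absolute log2 fold change over root F). Paralogue ratios were log2 of counts with 0.5 added. Usual members are those without an l after the number.

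Members and lists were chosen with earlier results of these data known. Genes named are those past the threshold, paralogues and their partners, the 6 highest and 6 lowest usual members, the 5 most abundant, members with well-known roles, and up to 4 genes of each list by p; others named for a count or a comparison were chosen after their values were seen. Alternatives were DESeq2 1.42.0, limma-voom (limma 3.58.1), other scalings and low-count filters, a replicate block, other pseudocounts and each library left out. All 86 members matched RefSeq and GENCODE M21. On simulated counts for 16196 genes, the procedure recovered 0% of genes changed 2-fold, 57.3% changed 4-fold and 89.6% changed 16-fold. Summed over 5 draws, the genes recovered numbered 0, 573 and 896. Beside them, 3, 100 and 93 unchanged genes were called falsely. No libraries agreed within sampling noise (chi-square per degree of freedom 141 to 551). The labels call the libraries biological replicates, and p-values of the fits set differences against the spread between them. The exact permutation p cannot fall below 0.33 with 2 against 2 libraries, however small that spread. Some results on single genes are not reported here.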

Additional observations from a re-analysis of the deposited data

How the results depend on the processing

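All 77 usual members kept positive log2 fold changes under the other TMM, total and ratio scalings, filters and tools (scaling to the usual members centres them on 0 by construction), and their median stayed between 0.85 and 1.02. Library totals alone gave 1.02 and moved the median of all genes from -0.02 to 0.14. With each library left out the median ranged from 0.58 to 1.25, the difference in share from 1.83 to 4.47 points, the members called from 0 to 10 and all genes called from 0 to 2750. DESeq2 called 19 members and 2951 genes, the replicate block called 1 member (Rps27, adjusted p = 0.0466) and 764 of 16196 genes, and scaling to the usual members called 1 member and 2165 genes. Over all genes tested, libraries with the same replicate number deviated together with a correlation of 0.12 (2 pairs). The numbers were therefore not taken to pair them. Among the usual members, however, all 77 were higher in replicate 1 of both treatments. The replicate block put 72 members at an unadjusted edgeR p under 0.05, against 19 without it. Over all genes it put 5073 there, against 4626. Whether the numbers mark a pairing was not tested. Of 618 values of 51 named genes, 557 kept their direction and side of the threshold, 45 passed newly, 8 lost their call and 8 changed direction.

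The values that changed direction are given here with others of the same genes or pairs, and the cause was not tested. The main direction was kept by 0.66 for Rpl41 and -3.30 for Rpl39l. It was also kept by the ratios of 0.65 (Rpl32l to Rpl32), -4.33 (Rpl39l to Rpl39) and -4.06 (Rpl3l to Rpl3). Rpl41 had -0.14 without MHE replicate 1 (up to 0.66 with another library left out), and Rpl10 -0.0062 without PBS replicate 2. Rpl39l had 0.24 with limma-voom, 4.11 without PBS replicate 2 and -3.30 without PBS replicate 1. Scaled to the usual members, Rpl22l1, Rpl32l, Rpl36al and Rpl7l1 had -0.57, -0.067, -0.58 and -0.50. The log2 ratio of Rpl32l to Rpl32 was -0.13 with 5 counts added, -0.050 without MHE replicate 2, -0.56 without PBS replicate 1 and 0.65 without PBS replicate 2. Leaving out PBS replicate 1 gave 1.90 for Rpl3l to Rpl3 and -4.33 for Rpl39l to Rpl39, and leaving out PBS replicate 2 gave -4.06 and 3.60 for the same pairs. Leaving out a library leaves 1 in its group, which is then assumed to vary like the other group. Counting depth did not limit the usual members, with at least 2909 counts each in every library, while Rpl3l, Rpl32l and Rpl10l were near the floor.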
